A study of Mus musculus with 6 samples.

Results

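The genes described are 10 genes of MHC class I antigen presentation, read out in regulatory T cells (Treg cells) sorted from mouse tumours. They are the heavy chain genes H2-K1, H2-D1 and H2-Q7, the light chain gene B2m, the peptide transport and loading genes Tap1, Tap2 and Tapbp, the immunoproteasome genes Psmb8 and Psmb9, and the transactivator gene Nlrc5. They were chosen by name, and each was found by its Ensembl identifier among the 54446 genes listed per library. All 10 passed the filter on low counts, through which 13172 genes were tested.

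Class I molecules carry peptides cut from a cell's own proteins to the cell surface, where CD8 T cells inspect them. Proteasomes cut the proteins, the TAP transporter moves the peptides into the endoplasmic reticulum, tapasin bridges the transporter to the empty heavy chain, and the filled heavy chain leaves with beta-2-microglobulin. Most nucleated cells carry the pathway, T cells strongly so, and interferons raise its transcription through IRF1 and NLRC5. B16 melanoma cells are known for low class I levels unless they meet interferon.

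Total RNA was sequenced from live CD45+ CD4+ Foxp3-GFP+ cells out of subcutaneous B16F10 tumours, a mouse melanoma line, in 6 libraries. The 3 libraries labelled Ythdf2 cKO are of genotype Foxp3CreYthdf2fl/fl and the 3 control libraries of genotype Foxp3CreYthdf2fl/+, so the controls too carry the Cre, which is driven by Foxp3, and 1 floxed allele. The titles nevertheless call the controls WT Control. They place Ythdf2 cKO replicates 2 and 3 and control replicate 3 in cage 2, and Ythdf2 cKO replicate 1 and control replicates 1 and 2 in cage 1. Neither the strain and age of the mice nor whether each library is a separate animal is stated in the labels, so p-values measure the spread between these libraries, which may be partly technical.

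Gene counts per library ran from 5602053 to 13602069, and the share of the 10 genes was lowest in control replicate 3, at 0.318%, and highest in Ythdf2 cKO replicate 1, at 0.770%. Levels are given as CPM, read counts scaled to a common library size after TMM, a scaling that sets most genes equal on average between libraries. On that scale the share of the 10 genes was 0.448% in control replicate 3 and 0.706% in Ythdf2 cKO replicate 1. Ythdf2, which encodes a reader of m6A-marked mRNA, was at 90.1, 104 and 104 CPM in Ythdf2 cKO replicates 1, 2 and 3, against 124, 102 and 93.1 CPM in control replicates 1, 2 and 3 (log2 fold change -0.098, SE 0.16, edgeR adjusted p = 1). The counts cover all exons and the deleted exons are not named in the labels, so directions are given for the libraries as labelled. Libraries also differed in what else they held. Mitochondrial ribosomal RNA made up 42.6% of the counts of control replicate 3, while the other 5 libraries held 9.97% to 19.2%. The other libraries of cage 2 held 18% and 19.2%, and those of cage 1 held 9.97% to 12%. All 9 Treg markers passed the low-count filter, and their sums are given with the cage comparison.

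Promoters of these genes are printed first, because the heavy chain genes share a layout that NF-kB, interferon regulatory factors and the NLRC5 complex are known to bind, and the series' title names NF-kB. RefSeq (GRCm38.p6) gave start windows for 8 of the 10 genes. Tap2 and Nlrc5 had none. The 250 bases before each start were searched on both strands for 4 motifs: the NF-kB consensus of 10 letters, the interferon regulatory factor core AANNGAAA, the cyclic AMP response element core TGACG and the CCAAT box. The stretches below run 5′ to 3′ along the gene's strand, with motif matches in capitals. They lie at chr17:34000334-34000461 (minus strand, H2-K1), chr17:35262920-35263048 (plus strand, H2-D1), chr17:35439019-35439146 (plus strand, H2-Q7) and chr2:122147547-122147641 (plus strand, B2m).
H2-K1: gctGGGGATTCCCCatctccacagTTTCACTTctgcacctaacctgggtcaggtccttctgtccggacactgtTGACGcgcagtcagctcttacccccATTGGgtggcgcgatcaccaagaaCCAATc
H2-D1: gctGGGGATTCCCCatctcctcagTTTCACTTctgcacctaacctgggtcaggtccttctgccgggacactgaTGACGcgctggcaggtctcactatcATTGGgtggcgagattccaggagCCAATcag
H2-Q7: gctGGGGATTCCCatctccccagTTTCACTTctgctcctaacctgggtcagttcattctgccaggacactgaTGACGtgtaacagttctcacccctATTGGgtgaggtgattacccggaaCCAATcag
B2m: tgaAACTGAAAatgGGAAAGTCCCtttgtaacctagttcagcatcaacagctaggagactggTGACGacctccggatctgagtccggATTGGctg

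In the 3 heavy chain genes the NF-kB match came first, then the interferon regulatory factor core on the reverse strand, the TGACG and the CCAAT letters in both orientations. In H2-K1 and H2-D1 the palindromic letters gave overlapping NF-kB matches. In B2m the interferon core stood before the NF-kB match. Of 32851 RefSeq upstream windows, 5% held the NF-kB consensus, 21.3% the interferon core, 17.8% TGACG and 33.9% a CCAAT box on either strand. These matches are letters in a window and no binding was measured.

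Tap1 and Psmb9 lie head to head on chromosome 17, and their GENCODE spans overlap by 212 bases. The stretch printed lies before the RefSeq starts of both genes, and inside the longer GENCODE span of Psmb9. It is shown because these neighbours differed in 1 library, as described further on. It held TGACG and a CCAAT box and no match to the other 2 motifs. The stretch at chr17:34187331-34187477 is printed along the plus strand, the strand of Tap1.
Tap1 and Psmb9: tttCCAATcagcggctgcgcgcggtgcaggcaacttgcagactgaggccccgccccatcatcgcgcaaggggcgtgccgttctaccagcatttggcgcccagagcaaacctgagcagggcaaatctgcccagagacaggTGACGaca

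Per kilobase of annotated exon, B2m was the most abundant of the 10 genes and Psmb9 the least, while the pathway's transport and loading genes lay close together. Averaged over the 6 libraries, B2m stood at 1519 CPM per kilobase, with a range from 1157 to 1846. H2-K1 at 536 and H2-D1 at 532 CPM per kilobase did not differ beyond their spread, with ranges from 424 to 713 and from 421 to 645. H2-Q7, a nonclassical heavy chain gene of the Qa-2 antigen, stood at 73.6 CPM per kilobase, Psmb8 at 59.4, Tapbp at 55.0, Tap1 at 43.2, Nlrc5 at 35.4 and Tap2 at 33.2. The ranges of neighbours in that order overlapped. Psmb9 at 9.81 CPM per kilobase lay apart, with a highest library of 12.4 against a lowest of 28.4 for Tap2. B2m lay apart at the other end, and the classical heavy chains lay apart from H2-Q7, whose highest library stood at 106. Exon length here is the union of all annotated transcripts, which counts rarely used exons in full.

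Reads of the heavy chain genes may be shared with their relatives. Of the 50-base words in the annotated transcripts, 26.5% of those of H2-Q7 also occurred in another gene, against 12.8% for H2-D1, 9.63% for H2-K1 and 0% for B2m. The word length is a choice, since the read length is not given in the sources used here, and reads aligned to several places were left out of the gene counts. Tapbp shared 23.2% of its words, mostly with the antisense gene Gm19412, Psmb8 11.9%, mostly with the antisense gene Gm20496, and Tap2 11.6%, mostly with Gm15821 on the opposite strand. The strand setting of the counting is not given either. The values of those genes may therefore hold antisense reads, or lack reads set aside as ambiguous between genes.

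**Figure D1:**
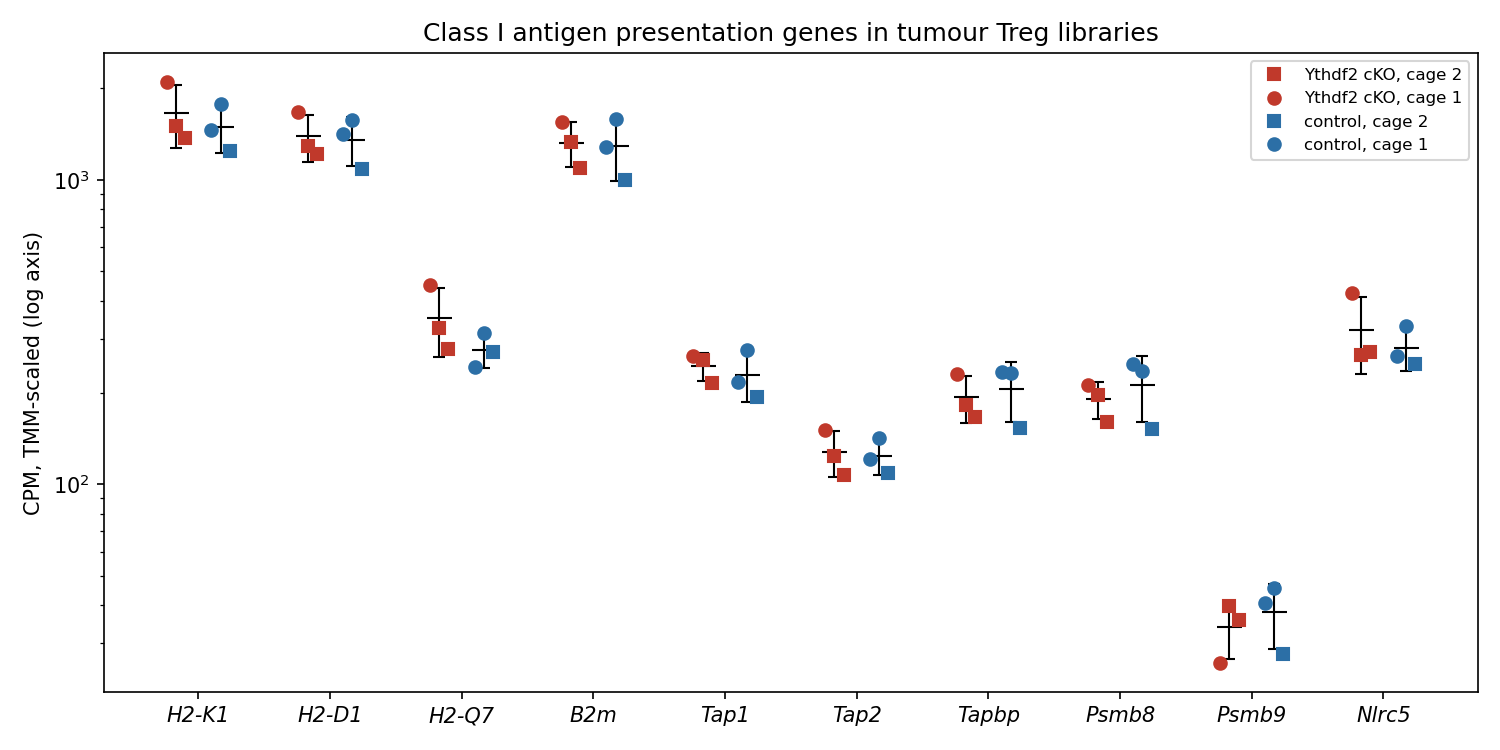
Level of each of the 10 genes in each library in CPM after TMM scaling, on a log axis, with Ythdf2 cKO libraries left of controls, squares for cage 2 and circles for cage 1; black bars give the mean and SD of 3 libraries. The genotypes overlap for every gene, and control replicate 3 (blue square) is the lowest point for 7 of the 10.

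The first question, which the design text states, is how gene expression in Treg cells differs with Ythdf2 deletion. No class I gene passed the threshold between the genotypes, and the libraries of the groups overlapped for each of the 10, while 3.4% of all genes tested lay wholly higher and 4.22% wholly lower. Of the 10 genes, 0 were called higher and 0 lower, as were 0% of all genes tested (edgeR, quasi-likelihood F-test, adjusted p below 0.05). Without adjustment, 0 of the 10 and 213 of 13172 genes, or 1.62%, had p below 0.05 in edgeR. The calls numbered 0 in DESeq2 and in limma-voom as well, where 279 and 239 genes were below 0.05 without adjustment. Log2 fold changes were above 0 for 7 genes (49.3% of all genes) and below 0 for 3, with a median of 0.038 beside -0.0049 for all genes tested. The 95% intervals of the 10 fold changes ran at their widest from -0.78 for Psmb9 to 0.85 for H2-Q7, so a 2-fold change in either direction lies outside each of them.

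H2-K1 (chromosome 17, 33996017 to 34000347, GRCm38), the K-locus classical heavy chain, was at 2094, 1499 and 1373 CPM in Ythdf2 cKO replicates 1, 2 and 3, against 1458, 1777 and 1245 CPM in control replicates 1, 2 and 3. The highest library was Ythdf2 cKO replicate 1 and the lowest control replicate 3, and the groups overlapped. The means were 1655 ± 385 CPM in the Ythdf2 cKO-labelled libraries and 1493 ± 268 CPM in the controls (SD, n = 3 each), with a log2 fold change of 0.15, SE 0.24 and a 95% interval from -0.40 to 0.70 (edgeR adjusted p = 1).

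H2-D1 (chromosome 17, 35262730 to 35267499), the D-locus classical heavy chain, was at 1664, 1286 and 1213 CPM in the Ythdf2 cKO-labelled libraries, against 1410, 1570 and 1085 CPM in the controls. The same libraries were highest and lowest as for H2-K1. Its log2 fold change was 0.034 with an SE of 0.22 and a 95% interval from -0.48 to 0.54. Within libraries, H2-K1 was read 1.26, 1.17 and 1.13 times as often as H2-D1 in Ythdf2 cKO replicates 1, 2 and 3, and 1.03, 1.13 and 1.15 times in control replicates 1, 2 and 3.

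H2-Q7 (chromosome 17, 35439155 to 35443773) had the largest of the 10 log2 fold changes, at 0.35 with an SE of 0.21 and an interval from -0.15 to 0.85 (edgeR adjusted p = 1). It was at 452, 326 and 277 CPM in the Ythdf2 cKO-labelled libraries, against 243, 315 and 271 CPM in the controls. Each library labelled Ythdf2 cKO except replicate 3 lay above each control. Its near relative H2-Q6, named after its values were seen, was at 368, 294 and 239 CPM in the Ythdf2 cKO-labelled libraries, against 217, 302 and 225 CPM in the controls.

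B2m (chromosome 2, 122147686 to 122153083) was at 1545, 1326 and 1097 CPM in the Ythdf2 cKO-labelled libraries, against 1285, 1588 and 995 CPM in the controls. The genotypes spanned nearly the same range, and the log2 fold change was 0.036 with an SE of 0.23 and an interval from -0.51 to 0.58. Set against H2-K1 and H2-D1 together, B2m was read 0.437 ± 0.034 times as often in the libraries labelled Ythdf2 cKO and 0.450 ± 0.024 times in the controls (SD, n = 3 each).

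The transporter genes Tap1 (chromosome 17, 34187553 to 34197225) and Tap2 (34203527 to 34216321) flank Psmb8 in the class II region. Tap1 was at 263, 256 and 215 CPM in the Ythdf2 cKO-labelled libraries, against 217, 277 and 193 CPM in the controls. Tap2 was at 151, 124 and 108 CPM in the Ythdf2 cKO-labelled libraries, against 121, 142 and 109 CPM in the controls. Both overlapped between the genotypes, with log2 fold changes of 0.094 (SE 0.18) and 0.039 (SE 0.18). Tapbp (chromosome 17, 33915899 to 33929292), the gene of tapasin, was at 230, 183 and 166 CPM in the Ythdf2 cKO-labelled libraries, against 233, 231 and 153 CPM in the controls, a log2 fold change of -0.098 (SE 0.21). For Tapbp the 3 libraries of cage 1 lay within a few CPM of each other, and the 3 of cage 2 below them.

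The immunoproteasome genes encode catalytic subunits that replace the standard ones in lymphocytes and after interferon, Psmb8 in place of Psmb5 and Psmb9 in place of Psmb6. Psmb8 (chromosome 17, 34197721 to 34201454) was at 212, 197 and 161 CPM in the Ythdf2 cKO-labelled libraries, against 248, 235 and 152 CPM in the controls, a log2 fold change of -0.16 (SE 0.22). It was read 14.7 ± 2.9 times as often as Psmb5 in the libraries labelled Ythdf2 cKO and 19.1 ± 1.2 times in the controls (SD, n = 3 each), with the lowest ratio, 11.5, in Ythdf2 cKO replicate 1 and the highest, 20.5, in control replicate 1. The highest of the 3 ratios in the libraries labelled Ythdf2 cKO, 17.1, lay below the lowest control ratio, 18.3, and the difference was not tested. Of the within-library ratios computed, no other separated the genotypes. The ratio of Psmb10 to Psmb7, another such pair, ran from 0.389 to 0.612 in the libraries labelled Ythdf2 cKO and from 0.457 to 0.911 in the controls. How often ratios of other genes separate the genotypes in this way was not counted. Psmb5 itself was read 710 times in all 6 libraries together. It was highest in Ythdf2 cKO replicate 1, at 18.5 CPM, with the other libraries at 8.21 to 12.9 CPM.

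Psmb9 (chromosome 17, 34181987 to 34187764) was at 25.9, 39.9 and 35.9 CPM in the Ythdf2 cKO-labelled libraries, against 40.6, 45.5 and 27.6 CPM in the controls, a log2 fold change of -0.16 (SE 0.26). It was the 1 gene of the 10 whose lowest library was Ythdf2 cKO replicate 1 (32.4% of all genes), where the heavy chain genes were highest. That library held 158 reads of Psmb9. The low value was not particular to Psmb9 among proteasome genes. Psmb6, Psmb10, Psma1 and Psma5 were also lowest in that library, while Psmb5 and Psmb3 were highest there. Psmb10 was at 14.1 CPM there and at 18.1 to 32.4 CPM in the others. The ratio of Psmb9 to Psmb6 was 0.905 ± 0.11 in the libraries labelled Ythdf2 cKO and 0.935 ± 0.20 in the controls. Its head-to-head neighbour Tap1 did not share the low value.

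Nlrc5 (chromosome 8, 94434356 to 94527272) encodes the transactivator that binds class I promoters through the complex on the X and Y boxes. It was at 425, 265 and 272 CPM in the Ythdf2 cKO-labelled libraries, against 263, 330 and 248 CPM in the controls. Ythdf2 cKO replicate 1 stood above the other 5 libraries, among which the genotypes overlapped. The log2 fold change was 0.19 with an SE of 0.23 and an interval from -0.34 to 0.73.

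**Figure D2:**
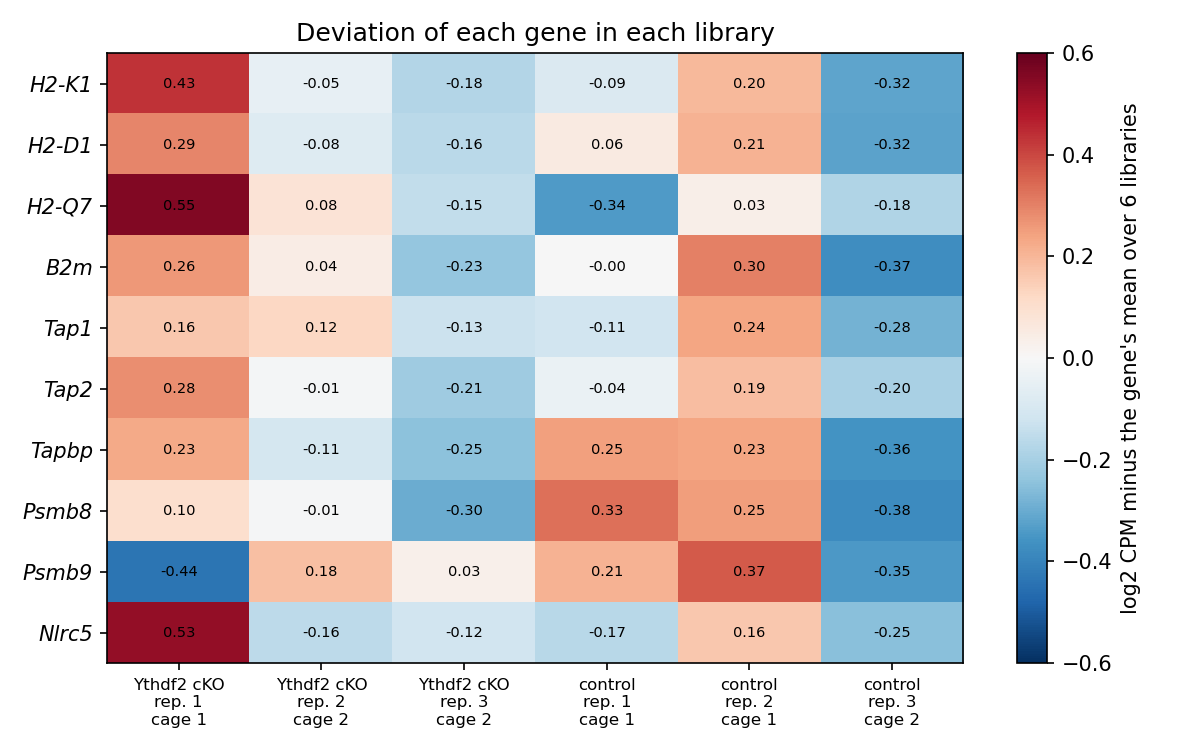
Deviation of each gene in each library from its own mean over the 6 libraries, in log2 CPM with a prior count of 2. The columns of Ythdf2 cKO replicate 1 and control replicate 2 are mostly above the mean, and that of control replicate 3 lies below it for all 10 genes.

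Averaged over the 10, the deviation from the mean was 0.24, 0.0024 and -0.17 log2 in Ythdf2 cKO replicates 1, 2 and 3, against 0.0087, 0.22 and -0.30 log2 in control replicates 1, 2 and 3. Control replicate 3 was lowest for 7 of the 10 genes, and for 21.9% of all genes tested. Ythdf2 cKO replicate 1 was highest for 5 of the 10, namely H2-K1, H2-D1, H2-Q7, Tap2 and Nlrc5, and for 25.2% of all genes.

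Within cages, the heavy chain genes and Nlrc5 were the ones for which each library labelled Ythdf2 cKO lay above each control of its cage. That held for 4 of the 10 genes and for 14.5% of all genes tested. Within cage 2 alone both libraries labelled Ythdf2 cKO lay above the control for 9 of the 10, all but Tap2, beside 34.4% of all genes, and within cage 1 the 1 library labelled Ythdf2 cKO lay above both controls for 5, beside 36.2%. H2-K1 differed by 0.21 log2 within cage 2 and 0.37 within cage 1, H2-D1 by 0.20 within cage 2 and 0.16 within cage 1, H2-Q7 by 0.15 within cage 2 and 0.70 within cage 1, and Nlrc5 by 0.12 within cage 2 and 0.52 within cage 1. With cage as a term in the fit the log2 fold changes were 0.29 for H2-K1, 0.18 for H2-D1, 0.43 for H2-Q7 and 0.32 for Nlrc5, and none passed the threshold (edgeR adjusted p = 0.488, 0.569, 0.455 and 0.497). In that fit 9 of the 10 genes were above 0, beside 46.3% of all genes, with a median of 0.18 beside -0.041. Without adjustment 2 of the 10, H2-K1 and H2-Q7, had p below 0.05, beside 10.2% of all genes. Cage 2 has 1 control library and cage 1 has 1 library labelled Ythdf2 cKO, so each within-cage value rests on a single library in 1 arm.

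**Figure D3:**
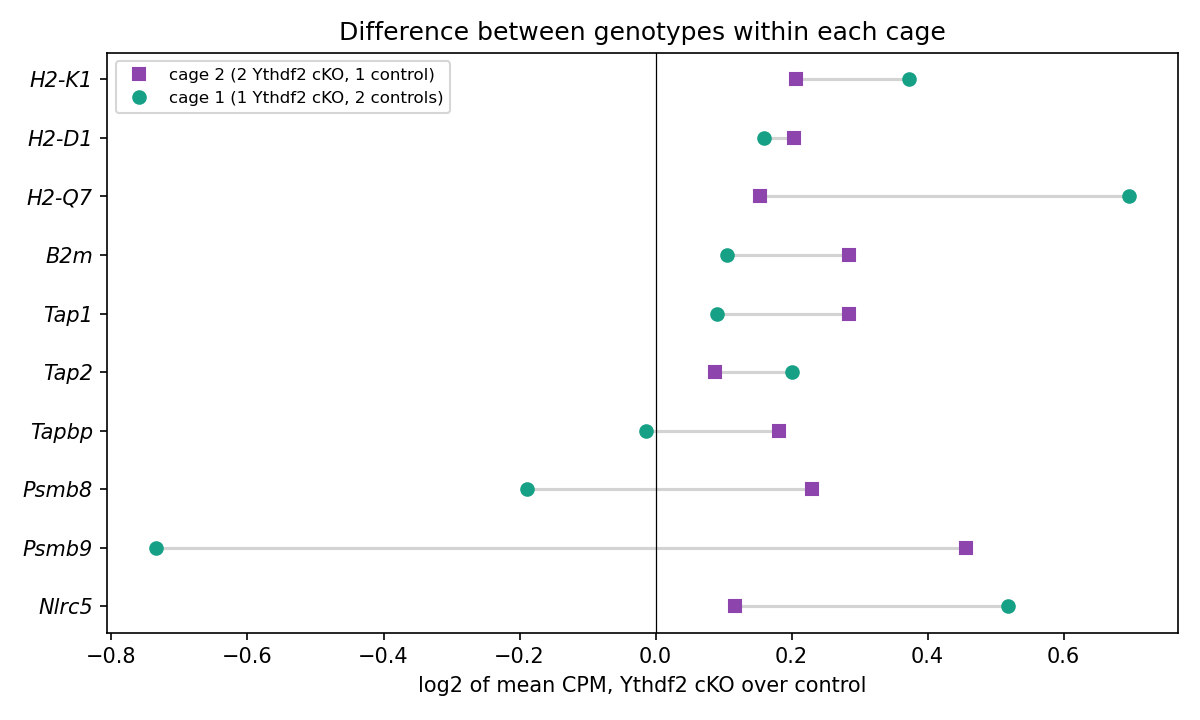
Log2 ratio of mean CPM, libraries labelled Ythdf2 cKO over controls, for each gene within cage 2 (squares) and within cage 1 (circles). The heavy chain genes and Nlrc5 lie right of 0 in both cages, while Psmb9 runs from 0.46 in cage 2 to -0.73 in cage 1.

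Whether the difference between genotypes itself differed between cages was tested for every gene, and 0 of the 10 genes passed in edgeR, beside 0.0304% of all genes in the higher direction, 0.0152% in the lower and 0.0456% in either. The difference was above 0 for 6 of the 10, beside 59.5% of all genes, and Psmb9 alone of them fell under 0.05 before adjustment, beside 14.3% of all genes. Psmb9 had the largest such difference, 1.19 log2 with an SE of 0.36 (unadjusted p = 0.0104, adjusted p = 0.253). Psmb8 stood at 0.23 log2 within cage 2 and -0.19 within cage 1, a difference of 0.42 log2 with an SE of 0.27 (adjusted p = 0.506). For H2-Q7 the difference was -0.54 log2 (SE 0.29, adjusted p = 0.425) and for Nlrc5 -0.40 (SE 0.26, adjusted p = 0.516).

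In the libraries of cage 2 H2-K1, H2-D1 and Tapbp fell below cage 1 past the threshold, and the log2 fold change was negative for all 10 genes (50.8% of all genes were above 0), at a median of -0.44 beside 0.013 for all genes tested (edgeR, genotype in the fit). The count called lower was 3 of 10 genes, beside 3.68% of all genes tested, and 0 of 10 were called higher, beside 7.83%, or 11.5% in either direction. Without adjustment 7 of the 10 had p below 0.05, beside 26.5%. H2-K1 averaged 1373 ± 127 CPM in cage 2 and 1776 ± 318 CPM in cage 1 (SD, n = 3 each), a log2 fold change of -0.46 with an SE of 0.13 (adjusted p = 0.0472). H2-D1 averaged 1195 ± 102 CPM in cage 2 and 1548 ± 128 CPM in cage 1, a log2 fold change of -0.44 with an SE of 0.11 (adjusted p = 0.0401). Tapbp averaged 167 ± 14.6 CPM in cage 2 and 232 ± 1.7 CPM in cage 1, a log2 fold change of -0.50 with an SE of 0.12 (adjusted p = 0.0334).

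B2m at -0.44, Nlrc5 at -0.46 and Psmb8 at -0.46 had log2 fold changes of like size that did not pass (edgeR adjusted p = 0.0796, 0.0719 and 0.0888). Tap2 at -0.33, H2-Q7 at -0.31, Tap1 at -0.26 and Psmb9 at -0.050 did not pass either (adjusted p from 0.161 to 0.934). The cages did not overlap for H2-D1, Tapbp and Psmb8, that is for 3 of 10 genes and 12.2% of all genes in that direction (15.1% in the other). Leaving out control replicate 2 or 3, or else Ythdf2 cKO replicate 1 or 3, left 0 of the 10 genes called, while across all 6 fits with 1 library left out log2 fold changes lay between -0.53 and -0.39 for H2-K1, between -0.47 and -0.40 for H2-D1 and between -0.61 and -0.39 for Tapbp. Without Ythdf2 cKO replicate 2 there was 1, and with cage as the only term 0, while DESeq2 called 6.

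**Figure D4:**
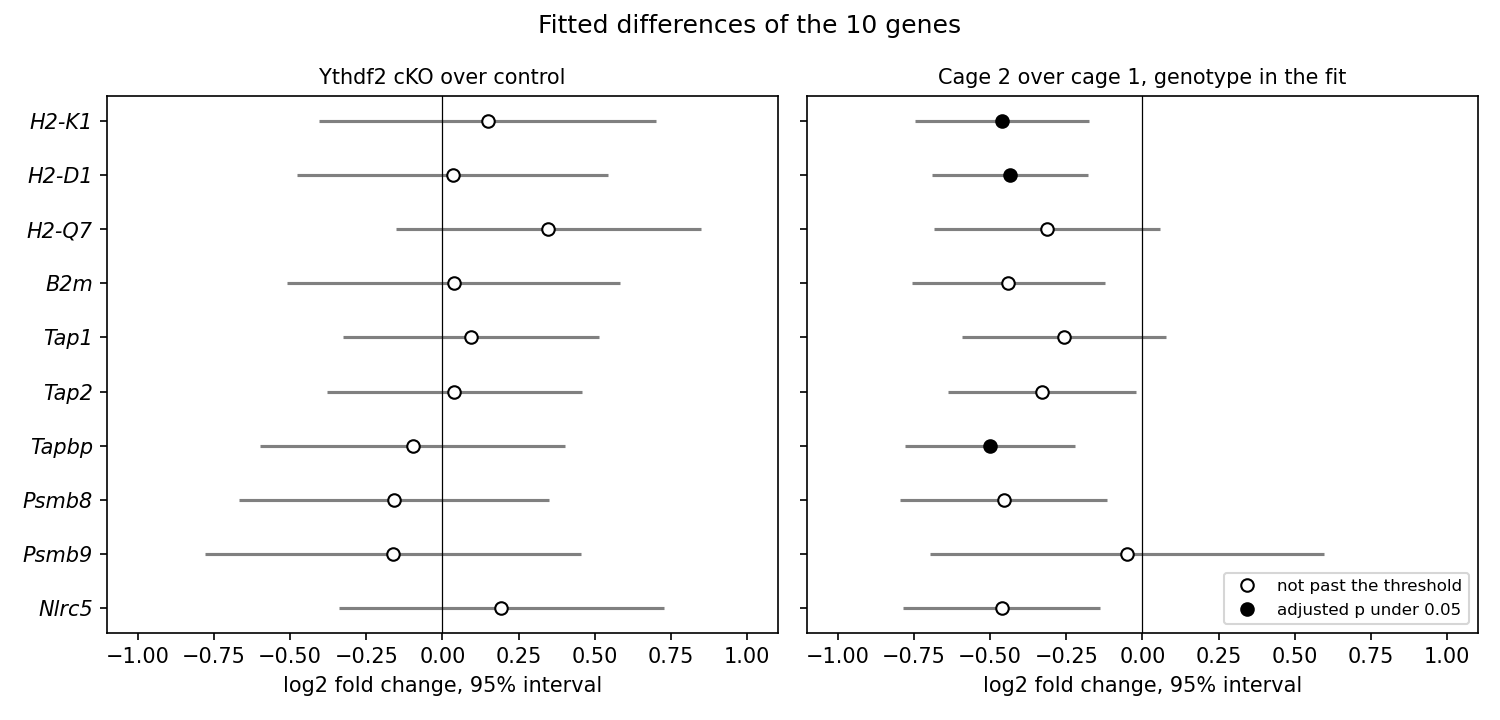
Log2 fold change with 95% interval for each gene, on the left libraries labelled Ythdf2 cKO over controls and on the right cage 2 over cage 1 with the genotype in the fit; filled points have an edgeR adjusted p under 0.05. The intervals on the left span 0 for all 10 genes, and the filled points on the right are H2-K1, H2-D1 and Tapbp.

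Markers of cell types also moved with the cage. The 9 Treg markers summed to 3881 to 5408 CPM in cage 2 and 6546 to 7132 CPM in cage 1, and the 15 melanoma markers to 2572 to 5299 CPM in cage 2 and 53.6 to 514 CPM in cage 1. In bulk RNA, fewer cells of a type and less RNA per cell cannot be told apart. The 12 macrophage markers summed to 19.1 to 286 CPM in cage 2 and 6.22 to 55.4 CPM in cage 1, and the 11 dendritic cell and class II markers to 277 to 362 CPM in cage 2 and 230 to 261 CPM in cage 1. Cd74 made up most of the dendritic cell and class II sums, at 154 to 218 CPM. The dendritic cell genes Zbtb46 and Xcr1 of that list overlapped between the cages. The 6 fibroblast markers summed to 10.2 to 144 CPM in cage 2 and 2.83 to 9.01 CPM in cage 1, and the 7 B cell markers to 84.4 to 118 CPM in cage 2 and 130 to 201 CPM in cage 1. Ighm made up most of the B cell sums, at 69.58 to 104.7 CPM in cage 2 and 111.4 to 195.5 CPM in cage 1. Pax5 and Ebf1 of that list went the other way. Pax5 was at 2.595 to 5.68 CPM in cage 2 and 0 to 1.474 CPM in cage 1, and Ebf1 was higher in cage 2 as well. Of these lists the macrophage sums overlapped between the cages and the others did not. The 6 CD8 T and natural killer cell markers summed to 25.9 CPM in Ythdf2 cKO replicate 1 and to 7.62 to 12.5 CPM in the other 5 libraries. Of that list Cd8b1 was at 5.37 to 23.1 CPM, and its 23.1 CPM made up most of the sum in Ythdf2 cKO replicate 1. Cd8a was at 1.80 CPM there and highest in control replicate 3, at 5.84 CPM. Klrb1c was at 0 in all 6 libraries. With library sizes set to the Treg marker counts, a scaling added after the data were seen, all 10 class I genes had a log2 fold change above 0 between cage 2 and cage 1, from 0.17 for Tapbp to 0.62 for Psmb9, and 0 passed. That scaling moved the median of all genes to 0.69. The 10 genes, with a median of 0.23, lay 0.46 below it, beside 0.45 below it with TMM. A rescaling shifts the fold changes of all genes by nearly the same amount, so this distance could hardly change.

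Per read of Cd4, the sorted surface marker, H2-K1 was read 2.97, 2.74 and 3.09 times in Ythdf2 cKO replicates 1, 2 and 3, and 2.61, 2.48 and 3.02 times in control replicates 1, 2 and 3. B2m was read 2.19, 2.42 and 2.47 times per read of Cd4 in the libraries labelled Ythdf2 cKO, and 2.30, 2.21 and 2.41 times in the controls. For H2-K1 the cages overlapped in this ratio, and for B2m each library of cage 2 lay above each of cage 1. Cd4 itself was at 412 to 548 CPM in cage 2 and 559 to 718 CPM in cage 1, and a lower Cd4 raises the ratio of any gene to it. The share of all genes that separate the cages in this ratio was not counted. Neither the part of the marker levels nor that of mitochondrial ribosomal RNA in the cage difference was tested.

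**Figure D5:**
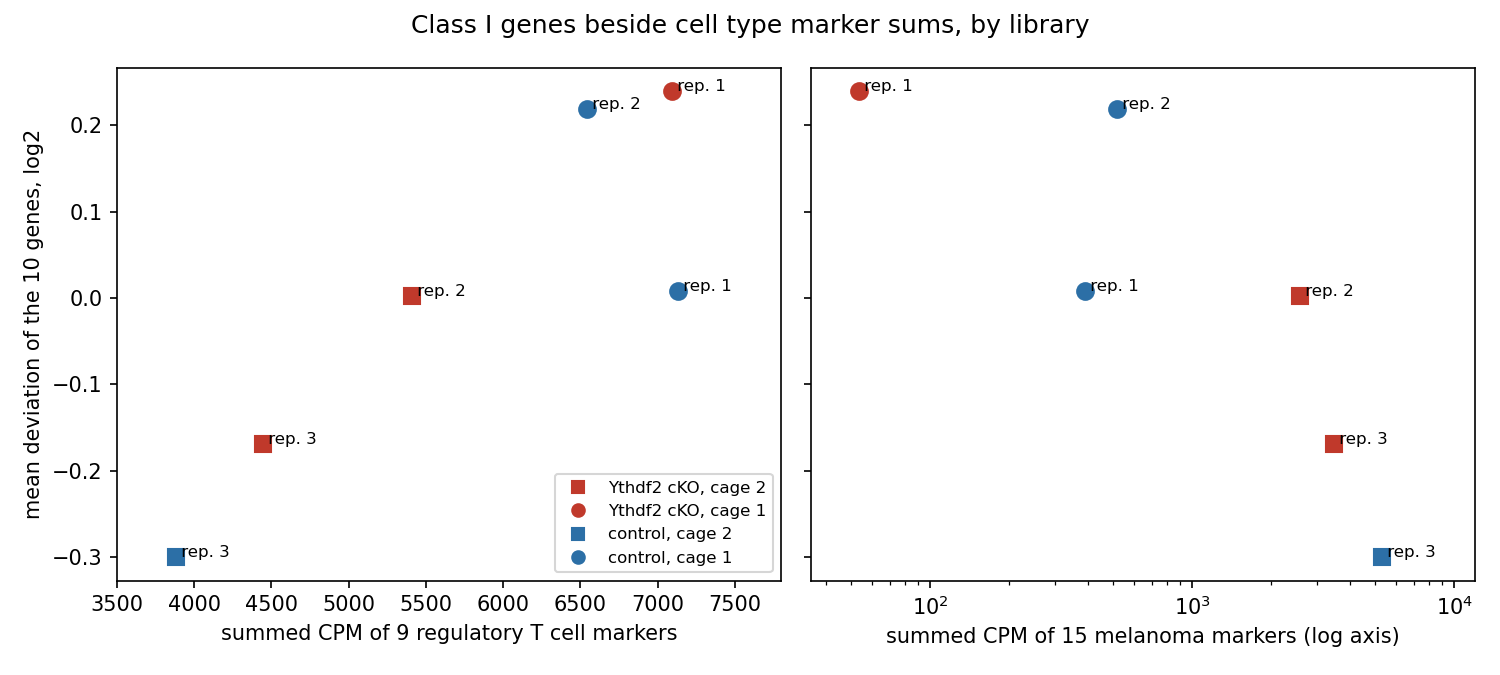
Mean log2 deviation of the 10 class I genes in each library against the summed CPM of 9 Treg markers (left) and of 15 melanoma markers (right, log axis); squares are cage 2, circles cage 1, red Ythdf2 cKO and blue control. Control replicate 3 has the lowest class I and Treg values and the highest melanoma value.

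Among 7762 other genes at a mean of at least 10 CPM, clone names and pseudogenes left out, Dok2, an adaptor of T cell signalling, Iqgap1, a cytoskeletal scaffold, Sh3kbp1, an adaptor in receptor uptake, Cep350, a centrosome gene, and Cd4 had the highest correlation with the mean deviation of the 10 genes over the 6 libraries (Pearson r from 0.994 to 0.998, a description, since all genes of a library share its depth and scaling). Cd4 was at 706, 548 and 445 CPM in the Ythdf2 cKO-labelled libraries, against 559, 718 and 412 CPM in the controls. Of the 10 genes, B2m followed the mean of the others most closely (r = 0.992) and Psmb9 least (r = 0.071), with H2-Q7 next at 0.563. Of the 7762 genes, 0.116% had a higher r with the same mean than B2m, 30.3% than H2-Q7 and 51.2% than Psmb9.

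Of the other genes of the pathway, in 4 lists, 0 were called in the genotype comparison. Of 18 other class I and class I-like heavy chain genes, 11 were tested and 7 had a log2 fold change above 0, beside 49.3% of all genes. The median was 0.15, beside -0.0049 for all genes tested. H2-T10 stood at 23.2 ± 7.4 CPM in the Ythdf2 cKO-labelled libraries and 16 ± 4.5 CPM in the controls. H2-T24 was at 10.8 ± 4.2 CPM in the Ythdf2 cKO-labelled libraries and 15.4 ± 1.7 CPM in the controls (SD, n = 3 each), a log2 fold change of -0.52 with an SE of 0.36 (edgeR adjusted p = 1). In cage 2, 0 of the 11 passed in either direction against cage 1, beside 11.5% of all genes, and 1 of the 11 was above 0, beside 50.8%, with a median of -0.34.

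Of 12 peptide loading and trimming genes, 4 were above 0 between the genotypes, beside 49.3% of all genes. The median was -0.099, beside -0.0049 for all genes tested. Erap1, which trims peptides in the endoplasmic reticulum, was at 84.9 ± 7.2 CPM in the Ythdf2 cKO-labelled libraries and 101 ± 26 CPM in the controls. Ero1a, an oxidase of protein folding listed as Ero1l in the annotation, was at 140 ± 63 CPM in the Ythdf2 cKO-labelled libraries and 210 ± 51 CPM in the controls. It was at 67.3 CPM in Ythdf2 cKO replicate 1, its lowest library. In cage 2 it rose to 205 ± 49 CPM, against 145 ± 71 CPM in cage 1 (log2 fold change 0.94, SE 0.21, edgeR adjusted p = 0.0234), as did Canx, the chaperone calnexin, at 602 ± 101 CPM in cage 2 and 429 ± 92 CPM in cage 1 (0.64, SE 0.13, adjusted p = 0.0143). These were the 2 of 12 genes called higher, beside 7.83% of all genes, and 0 were called lower, beside 3.68%.

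Of 20 other proteasome subunits and activators, 4 were above 0 between the genotypes, beside 49.3% of all genes. The median was -0.078, beside -0.0049 for all genes tested. Psmb4, a core subunit, was at 37.8 ± 6.8 CPM in the Ythdf2 cKO-labelled libraries and 49.2 ± 4.7 CPM in the controls, and Pomp, which assembles proteasomes, at 62.8 ± 4.5 CPM in the Ythdf2 cKO-labelled libraries and 75.6 ± 4.0 CPM in the controls. Within cage 2 the median of the list was 0.070, beside 0.012 for all genes tested, and within cage 1 it was -0.33, beside -0.043. In cage 2 the subunit gene Psme1 of the PA28 activator fell to 218 ± 28 CPM, against 331 ± 15 CPM in cage 1 (log2 fold change -0.63, SE 0.14, edgeR adjusted p = 0.0205), the 1 gene of 20 called, beside 3.68% of all genes called lower and 11.5% in either direction.

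Of 28 regulators of class I transcription, 17 were above 0 between the genotypes, beside 49.3% of all genes. The median was 0.043, beside -0.0049 for all genes tested. The CCAAT-binding subunits Nfyb and Nfyc had the smallest p, Nfyb at 63.7 ± 2.2 CPM in the Ythdf2 cKO-labelled libraries and 78.9 ± 13 CPM in the controls, and Nfyc at 34.2 ± 7.8 CPM in the Ythdf2 cKO-labelled libraries and 26.3 ± 4.4 CPM in the controls; neither passed (edgeR adjusted p = 1). In cage 2, 2 of the 28 were called lower and 0 higher, beside 3.68% and 7.83% of all genes. Nfkb1, the p50 subunit of NF-kB, fell to 355 ± 44 CPM in cage 2, against 526 ± 96 CPM in cage 1 (log2 fold change -0.67, SE 0.12, edgeR adjusted p = 0.00949), and Eed, a Polycomb subunit, was the other. The interferon regulator Irf1, named after its values were seen, had the same high library as the heavy chain genes, as had 25.2% of all genes tested. Irf1 was at 439, 222 and 195 CPM in the Ythdf2 cKO-labelled libraries, against 218, 261 and 220 CPM in the controls.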

How the data were processed

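A SMARTer stranded total RNA kit was used, per the labels' protocols. For each library the authors deposited raw read counts per gene. Trimmomatic 0.39, HISAT2 2.1.0, HTSeq, DESeq2 and mm10 are named per the submitters' processing notes. Annotation release and strand setting: not given in the sources used here. Of 54446 gene identifiers, 54409 matched GENCODE M21, from which symbols, coordinates and exon lengths came. The summary rows of the tables (no gene, 24.6% to 35.8%; ambiguous, 1.43% to 2.21%; not uniquely aligned, 9.22% to 12.9%) stayed out of library sizes and tests. Any 2 libraries differed by more than sampling noise, the smallest chi-square being 15.8 times its degrees of freedom.

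After filterByExpr (count 10, total 15) and TMM scaling, the quasi-likelihood test of edgeR 4.0.16 was run in R 4.3.3, with all 6 libraries in each fit: genotype alone, cage beside genotype, and the difference of genotype effects between cages. P-values were adjusted over all 13172 genes at a threshold of 0.05. The fitting was tested on simulated data. The 10 genes and all gene lists were chosen with earlier results of these data known. Named are the 10 genes and, from each pathway list, the genes past the threshold (up to 4) or else the 2 with the smallest p. Of other genes, the 5 most alike in pattern are named. Alternatives were DESeq2 1.42.0, limma-voom (limma 3.58.1), other scalings and filters, replicate number or cage in the fit, and each library left out.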

Additional observations from a re-analysis of the deposited data

How the results depend on the processing

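Between the genotypes 0 of the 10 genes were called under any of the alternatives run with a test. Over all genes, 26 were called higher and 7 lower without the low-count filter. With control replicate 3 and Ythdf2 cKO replicate 1 both left out (added after the data were seen), 427 were called higher and 33 lower, but that fit sets Ythdf2 cKO libraries of cage 2 against controls of cage 1. The log2 fold change was then -0.16 for H2-K1, -0.24 for H2-D1, -0.24 for B2m, -0.061 for Tap1, -0.18 for Tap2 and -0.14 for Nlrc5. It turned to 0.0036 for Tapbp with total counts, and to 0.083 for Tapbp and 0.020 for Psmb8 with cage as a term. With each library left out it ran from -0.062 to 0.29 for H2-K1, -0.12 to 0.15 for H2-D1, -0.095 to 0.21 for B2m, -0.11 to 0.14 for Tap2 and -0.068 to 0.32 for Nlrc5, lowest each time without Ythdf2 cKO replicate 1. Same-numbered libraries deviated together in 2 of the 3 pairs, the 2 that share a cage (correlations 0.41 for number 1 and 0.547 for number 3), and not in the pair that spans the cages (-0.236 for number 2), so the numbers were not taken to pair the libraries. With the replicate block 0 genes were called and the median of the 10 was 0.043.

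Between the cages DESeq2 called 1550 genes higher, 799 lower and 6 of the 10 lower. Total counts gave 646 and 732 genes and a median of the 10 of -0.77, with all genes at -0.32. No filter gave 873 lower and 6 of the 10, and cage as the only term 146 lower and 0 of the 10. With each library left out, 595 to 919 genes were called higher, 65 to 376 lower and 0 to 3 of the 10, and Psmb9 ran from -0.65 to 0.57. Scaled to Treg markers, 4730 genes were called higher, 12 lower and 0 of the 10, with a median of 0.23. H2-K1 was then at 0.21, H2-D1 0.24, H2-Q7 0.35, B2m 0.23, Tap1 0.41, Tap2 0.34, Tapbp 0.17, Psmb8 0.21, Psmb9 0.62 and Nlrc5 0.21. For the difference between cages, DESeq2 called 49 genes higher and 15 lower with H2-D1 at -0.018, limma-voom 0 and 4, and total counts 28 higher with H2-K1 at 0.37, Tap2 at 0.43 and Nlrc5 at 0.14; 0 of the 10 were called. The cause of these changes was not tested. Reads are not independent molecules, and Psmb9, with 158 reads in its smallest library, is the least deeply read of the 10.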

Other observations

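Several class I-like genes were close to the floor of these libraries. H2-M5 was read 0 times in the 6 libraries together, H2-M2 2 times, H2-T3 4 times and H2-M9 6 times. Cd1d2 was read 16 times, beside 468 reads of its neighbour Cd1d1, which presents lipids to natural killer T cells.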
